A study of Mus musculus with 6 samples.

Results

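Collagen genes were examined in liver tumors of mice with floxed Prmt3 (Prmt3 f/f) and of mice that lost it in hepatocytes (Prmt3 LKO). All rows of the gene table whose symbol is Col, a type number, a and a chain number were taken, which gave 44 collagen genes of 34745 genes. By the type number, 11 were fibrillar, 9 were basement membrane collagens (types IV, VII, XV and XVIII), and 24 were others, such as the fibril-associated, beaded filament, short chain and transmembrane types. RNA-seq libraries came from 3 tumors of Prmt3 f/f mice (labelled WT, numbered 7, 66 and 71) and 3 tumors of Prmt3 LKO mice (labelled Prmt3-KO, numbered 92, 93 and 94), with 1 library for each tumor. Both groups carried floxed Prmt3 and were male. Both received DEN, a liver carcinogen, when 2 weeks old (25 mg/kg), and then 10% CCl4 in oil at 0.5 ml/kg by intraperitoneal injection, 2 times weekly from 6 weeks, until the mice were killed at 26 weeks. Repeated CCl4 scars the liver, so the tumors of both genotypes grew in a fibrotic organ, and no untreated liver was among these samples. Prmt3 LKO mice also carried Alb-Cre, which is driven by the albumin promoter and recombines in hepatocytes, so the stellate cells and fibroblasts that make most fibrillar collagen of the liver keep an intact gene. The labels do not say whether the 3 tumors of a group came from separate mice, so p-values measure only the spread between these tumors.

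Collagens are trimers of chains wound into a triple helix. Types I and III, with type V at the core of the fibril, form the scar fibers of a fibrotic liver, which activated stellate cells and portal fibroblasts deposit. Type IV chains form the network of basement membranes, type VI makes beaded microfilaments, and types XV and XVIII carry heparan sulfate or chondroitin sulfate chains at basement membranes. The C-terminal piece of the type XVIII chain is endostatin, and hepatocytes are a known source of Col18a1 transcripts.

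Stretches of genomic DNA next to 3 collagen genes or gene pairs are shown first, as they lie before genes whose levels are described here. They were chosen after the values were seen, and their activity was not measured. The sequences are from RefSeq on GRCm38.p6, read 5′ to 3′, and capitals mark GGGCGG (or CCGCCC, its reverse complement), CCAAT (or ATTGG) and TATAAA (or TTTATA). The first is the whole stretch between the start sites of Col4a4 and Col4a3, 71 bases at chr1:82586850-82586920, read on the minus strand, and it holds none of the 3 motifs. The second is the 250 bases before the start of Col3a1, the fibrillar collagen with the highest level, at chr1:45311288-45311537 on the plus strand. The third is the 250 bases before the start of Col5a1, a chain of the fibril core, at chr2:27886175-27886424 on the plus strand.
Col4a4 and Col4a3: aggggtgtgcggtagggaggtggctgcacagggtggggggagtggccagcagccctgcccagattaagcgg
Col3a1: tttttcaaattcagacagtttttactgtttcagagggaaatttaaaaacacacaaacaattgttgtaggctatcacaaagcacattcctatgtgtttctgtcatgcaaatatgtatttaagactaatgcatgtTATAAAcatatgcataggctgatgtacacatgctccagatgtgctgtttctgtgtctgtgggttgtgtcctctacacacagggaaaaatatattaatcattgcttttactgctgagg
Col5a1: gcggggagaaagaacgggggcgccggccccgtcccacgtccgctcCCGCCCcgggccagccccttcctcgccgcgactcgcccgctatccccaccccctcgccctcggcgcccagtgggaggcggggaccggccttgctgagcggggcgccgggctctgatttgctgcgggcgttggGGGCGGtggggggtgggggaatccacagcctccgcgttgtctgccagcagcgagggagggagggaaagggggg
The window of Col3a1 held TATAAA and no GGGCGG, and that of Col5a1 held GGGCGG on both strands and no TATAAA. Promoters of 35 of the 44 collagen genes were matched by symbol. Searched on both strands over the 250 bases before the start, GGGCGG was found in 21 of the 35 genes (60.0%) and in 32.7% of all 32851 promoters. CCAAT was found in 13 (37.1%, against 33.8% of all promoters) and TATAAA in 5 (14.3%, against 12.4%). A collagen gene was counted if any of its windows held the motif, over 38 windows for the 35 genes. The share of all promoters counts single windows, so the shares differ in unit. These matches describe letters in a window and were not tested as binding sites.

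Between 18440244 and 27976598 reads were counted per tumor, and Alb alone took at most 16.1% of them. A gene without reads could have stood as high as 0.107 to 0.163 CPM, which is the count scaled by library size (3 counts taken as the limit, counting error only). Prmt3, the deleted gene, was at 6.60, 8.48 and 10.2 CPM in Prmt3 f/f tumors 7, 66 and 71, and at 2.80, 2.03 and 3.82 CPM in Prmt3 LKO tumors 92, 93 and 94. The groups did not overlap, and the change on the log2 scale was -1.55 with a standard error of 0.29. Its adjusted p, by Benjamini-Hochberg over all genes, was 0.592 in edgeR's quasi-likelihood test. The call changed with the tool, as the adjusted p was 0.00357 with DESeq2 and 0.00722 with the edgeR exact test, and over the other alternatives it lay between 0.400 and 0.996. The counting method and its use of strand are not given in the sources used here, so reads where genes overlap could not be assigned to a strand.

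The level of each collagen gene was compared first. FPKM, which divides the count by the gene length and the total count of the tumor, was used to compare genes. In all, 17 of the 44 collagen genes had a mean of at least 1 FPKM over the 6 tumors, namely 6 fibrillar, 7 basement membrane and 4 other collagens, and 17 had a mean under 0.1 FPKM. Col18a1 (chromosome 10, from 77052178 to 77166548 of GRCm38) had the highest level in every tumor, at 57.5, 64.4 and 70.7 FPKM in Prmt3 f/f tumors and 74.3, 61.5 and 69.1 FPKM in Prmt3 LKO tumors. It took between 27.2% and 46.5% of the summed FPKM of all collagen genes, and its level varied only 1.29-fold over the 6 tumors. Col4a1 and Col4a2, the chains of the common type IV trimer, followed at a mean of 23.04 and 16.6 FPKM. Between them in the order stood Col3a1 at 16.8 FPKM. Col1a1, at 10.4 FPKM, and Col1a2, at 6.34 FPKM, which form type I collagen, stood on either side of Col14a1, a fibril-associated collagen, at 8.94 FPKM.

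**Figure D1:**
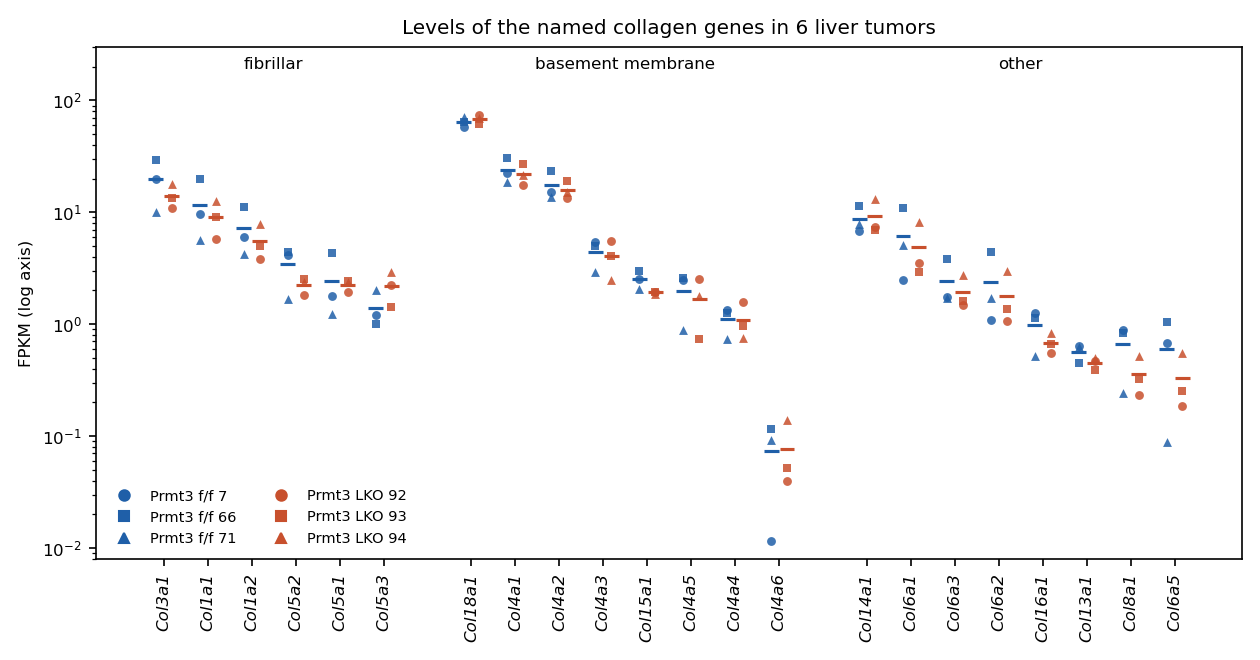
FPKM of the 22 collagen genes named by level (log axis), by class, in each of the 6 tumors. Symbols are tumors, blue for Prmt3 f/f and orange for Prmt3 LKO, and bars are group means. Col18a1 lies highest in every tumor, between 57.5 and 74.3 FPKM.

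These levels rest on the gene lengths in the authors' FPKM. The length that a count and its FPKM imply was longer than the transcript with the longest coding sequence (GENCODE M21) by over 1.5 times in 10 of the 33 collagen genes where it could be worked out. It was 16209 bases for Col1a2, against 5348 bases for its transcript. With transcript lengths, an alternative chosen after seeing the data, Col18a1 kept the highest mean and took 33.9% to 55.6% of the collagen sum, Col3a1 moved to rank 2, and Col1a2 moved from rank 7 to rank 4 and Col1a1 from rank 5 to rank 7. The order of neighbours among the abundant collagens therefore depends on the length. Differences between tumors in 1 gene do not, as the length cancels.

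Summed over the 11 genes, fibrillar collagens stood at 42.9, 71.05 and 25.5 FPKM in Prmt3 f/f tumors 7, 66 and 71, and at 27.2, 34.2 and 46.5 FPKM in Prmt3 LKO tumors 92, 93 and 94. The highest and the lowest tumor were both Prmt3 f/f, and the 3 Prmt3 LKO tumors lay between them. Types I and III took 74.9% to 85.2% of this sum. The sum of the 9 basement membrane collagens varied less, from 107 to 130 FPKM, of which Col18a1 made up a large part, and the 6 type IV chains alone came to 46.9, 63.0 and 37.2 FPKM in Prmt3 f/f tumors and 40.6, 52.0 and 41.6 FPKM in Prmt3 LKO tumors. For the 24 other collagens the sum was 16.7, 35.4 and 19.1 FPKM in Prmt3 f/f tumors and 15.7, 15.3 and 31.9 FPKM in Prmt3 LKO tumors. In each of these sums the groups overlapped.

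Low members were counted in reads. Col2a1, the main collagen of cartilage, and Col26a1 had 0 counts in every tumor, and 6 of the 44 genes, with these included, never passed 3 counts in a tumor. In all, 16 genes did not pass the filter on low counts. These were 3 fibrillar (Col2a1, Col11a1, Col24a1), 1 basement membrane (Col7a1, the anchoring fibril of skin) and 12 other collagens. Of the genes outside the filter, Col28a1 had the highest count in 1 tumor, with 62 reads in Prmt3 LKO tumor 94, against 0 in Prmt3 LKO tumors 92 and 93 and 0, 14 and 4 in Prmt3 f/f tumors 7, 66 and 71.

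The study sequenced both genotypes to follow the effect of Prmt3 on tumor progression, and the same comparison was made here for each collagen gene. No collagen gene differed between the genotypes beyond the spread between tumors. In edgeR's quasi-likelihood test, 0 of the 28 genes tested passed an adjusted p under 0.05 with a fold of at least 2 or at most 0.5. Over all 13892 genes it was 0.0%. At like limits the study reported genes both up and down in Prmt3 LKO tumors, and its methods name no count test. As the test here called no gene at all, 0 calls do not set the collagens apart. An unadjusted p under 0.05 was reached by 0 of the 28 and by 6.56% of all genes (4.37% lower and 2.2% higher in Prmt3 LKO tumors). DESeq2 gave 0 collagen genes at an adjusted p under 0.05 and 1 at an unadjusted p under 0.05. Its shares over all genes were not counted, so these numbers have no background beside them. Groups that do not overlap in CPM were found in 0 of the 28, against 12.2% of all genes (6.59% lower and 5.58% higher in Prmt3 LKO tumors). The log2 fold change was negative in 20 of the 28 and in 49.9% of all genes. Its median was -0.23 in fibrillar, -0.11 in basement membrane and -0.31 in other collagens, beside 0.00037 over all genes tested. As whole tumor pieces were sequenced, the number of collagen-making cells and their RNA per cell cannot be told apart.

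The interval around the change was wide for many collagen genes, though narrower for some, such as Col18a1 (fold 0.793 to 1.48). Within groups, the standard deviation of log2 CPM had a median of 0.61 over the 28 collagen genes and 0.28 over all genes tested. On data simulated from these libraries, the test recovered 89.1% of 192 genes changed 4-fold among 13690 tested. These genes were drawn from all genes, and recovery was not measured for genes as variable as the collagens. On the tumors themselves the same test called 0.0% of 13892 genes. Prmt3, at -1.55 on the log2 scale, had an adjusted p of 0.592 in it. The simulated share is therefore no measure of recovery in these tumors, and collagen changes of 4-fold or smaller could be missed.

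**Figure D2:**
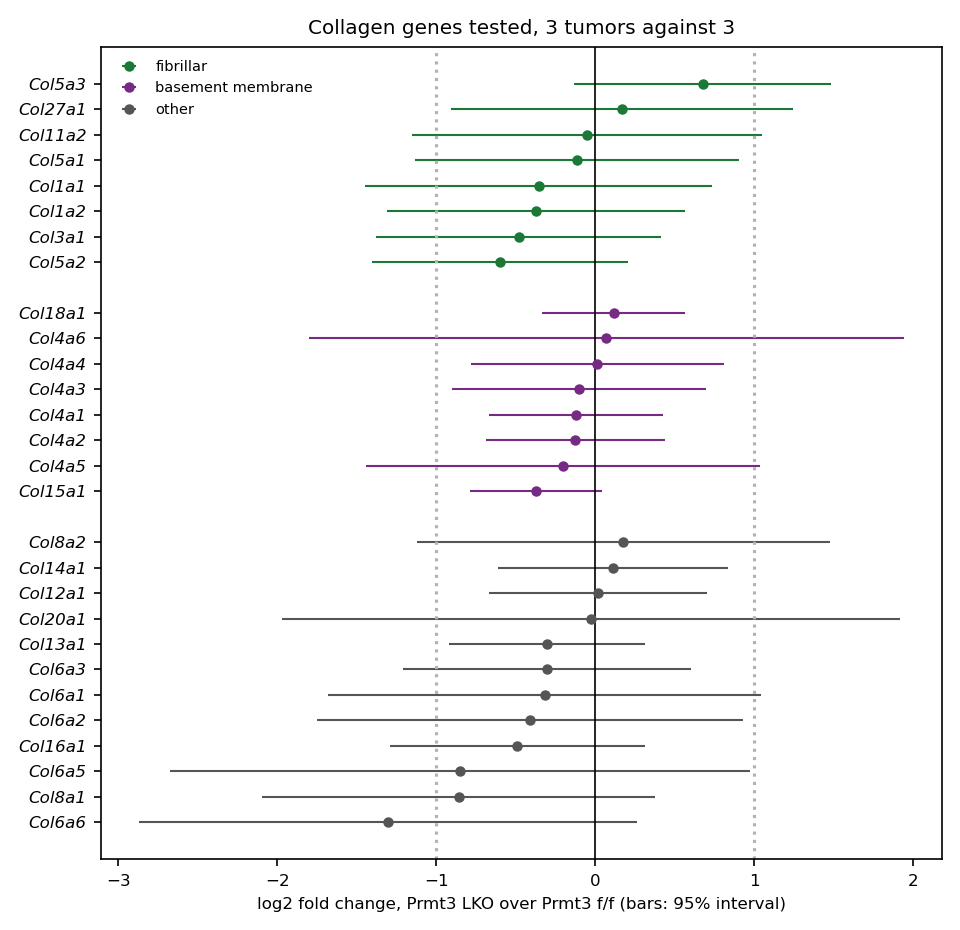
The log2 fold change of Prmt3 LKO over Prmt3 f/f tumors for the 28 collagen genes tested, colored by class. Points are the values fitted by edgeR, bars are 95% intervals, and dotted lines mark a fold of 2 and 0.5. Every bar crosses 0.

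Fibrillar collagens were taken one by one. Col1a1 (chromosome 11, from 94936224 to 94953042 of GRCm38), which codes for the main chain of type I collagen, was at 9.58, 19.9 and 5.71 FPKM in Prmt3 f/f tumors and 5.74, 9.14 and 12.6 FPKM in Prmt3 LKO tumors. The groups overlapped, with a Prmt3 f/f tumor at each end. Its fold change was 0.782 (95% interval 0.367 to 1.66, adjusted p = 0.957 from edgeR). Col1a2, the partner chain, was at 6.06, 11.2 and 4.26 FPKM against 3.80, 4.95 and 7.78 FPKM, a fold of 0.773 (95% interval 0.404 to 1.48). Col3a1 (chromosome 1, from 45311538 to 45349706), the collagen of fine reticular fibers, was at 19.6, 29.4 and 9.96 FPKM against 10.9, 13.4 and 17.7 FPKM, with a fold of 0.716 (95% interval 0.384 to 1.33). For these 3 genes tumor 66 was the highest, and the sign of the change depended on it for type I. Without Prmt3 f/f tumor 66 the log2 fold change went from -0.36 to 0.30 for Col1a1 and from -0.37 to 0.14 for Col1a2, and from -0.48 to -0.03 for Col3a1.

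The type V chains, which set the diameter of type I fibrils, did not move alike. Col5a2 was at 4.16, 4.45 and 1.68 FPKM in Prmt3 f/f tumors and 1.84, 2.53 and 2.36 FPKM in Prmt3 LKO tumors, so that 2 Prmt3 f/f tumors lay above and 1 below all Prmt3 LKO tumors. Its log2 fold change was -0.60 (standard error 0.35, adjusted p = 0.835 from edgeR). Col5a3, by contrast, was at 1.20, 0.994 and 2.01 FPKM against 2.25, 1.41 and 2.91 FPKM, or 0.68 higher on the log2 scale (standard error 0.35, adjusted p = 0.798 from edgeR). Here tumor 66 was the lowest of the 6. Col5a1 stood at 1.77, 4.32 and 1.22 FPKM against 1.96, 2.42 and 2.36 FPKM, and its log2 fold change of -0.11 turned to 0.63 without Prmt3 f/f tumor 66. The other fibrillar genes tested, Col11a2 and Col27a1, had log2 fold changes of -0.05 and 0.17.

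Among basement membrane collagens, Col18a1 had a fold of 1.08 (95% interval 0.793 to 1.48), and Col4a1 and Col4a2 had folds of 0.919 (95% interval 0.629 to 1.34) and 0.917 (95% interval 0.620 to 1.36). Col4a1 was at 22.7, 30.8 and 18.8 FPKM in Prmt3 f/f tumors and 17.6, 27.03 and 21.4 FPKM in Prmt3 LKO tumors, and the groups overlapped. A change of 2-fold lay outside the interval of all 3 genes. Col15a1, a basement membrane collagen of vessels and stroma, had the lowest unadjusted p of all 28 genes. It was at 2.53, 2.99 and 2.06 FPKM against 1.94, 1.95 and 1.87 FPKM, so that in FPKM every Prmt3 LKO tumor lay below every Prmt3 f/f tumor. In CPM with TMM scaling the groups overlapped, and the log2 fold change was -0.37 (standard error 0.18, unadjusted p = 0.0708 and adjusted p = 0.774 from edgeR). By exact permutation of the 6 tumors (two-sided) p was 0.2, and 0.1 is the smallest value such a design can give.

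The minor type IV chains, which form the trimers of kidney, lung and smooth muscle basement membranes, were also present. Col4a3 stood at 5.40, 4.96 and 2.90 FPKM in Prmt3 f/f tumors and 5.54, 4.10 and 2.47 FPKM in Prmt3 LKO tumors, and Col4a4 at 1.33, 1.27 and 0.738 FPKM against 1.57, 0.969 and 0.755 FPKM. Both were highest in tumor 92 and low in tumors 71 and 94. Col4a5 was at 2.49, 2.58 and 0.887 FPKM against 2.51, 0.738 and 1.78 FPKM. Col4a6 had only 2, 21 and 21 reads in Prmt3 f/f tumors and 6, 9 and 23 reads in Prmt3 LKO tumors. Their log2 fold changes lay between -0.20, for Col4a5, and 0.07, for Col4a6. An antisense-strand gene within the span of Col4a3, C430014B12Rik, had 85 reads over all tumors against 5917 for Col4a3.

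Of the other collagens, the type VI chains Col6a1, Col6a2 and Col6a3 were the most abundant after Col14a1. Col6a1 was at 2.48, 10.9 and 5.10 FPKM in Prmt3 f/f tumors and 3.56, 2.92 and 8.24 FPKM in Prmt3 LKO tumors, with a fold of 0.803 (95% interval 0.312 to 2.06). Col6a2 and Col6a3 had folds of 0.752 and 0.811. All 3 were highest in tumor 66 and next in tumor 94. Without tumor 66 their log2 fold changes turned to 0.42, 0.40 and 0.22. Col14a1 was at 6.81, 11.3 and 7.83 FPKM against 7.44, 6.99 and 13.3 FPKM, a fold of 1.08 (95% interval 0.655 to 1.78).

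The largest fitted changes were in genes of low level. Col8a1, a short chain collagen of vessel walls, was at 0.893, 0.838 and 0.245 FPKM in Prmt3 f/f tumors and 0.234, 0.322 and 0.515 FPKM in Prmt3 LKO tumors, which is -0.86 on the log2 scale (standard error 0.53, adjusted p = 0.861 from edgeR). Col16a1, a fibril-associated collagen, was at 1.27, 1.14 and 0.520 FPKM against 0.549, 0.658 and 0.841 FPKM. In both genes tumors 7 and 66 lay above the Prmt3 LKO tumors and tumor 71 was near their lowest value or below it. Col6a5, a minor type VI chain, ranged from 0.0882 FPKM in Prmt3 f/f tumor 71 to 1.04 FPKM in Prmt3 f/f tumor 66, an 11.8-fold span within 1 genotype. Col6a6, which was chosen after its values were seen, had 26, 130 and 140 reads against 38, 13 and 44 reads. Its log2 fold change was -1.30 (standard error 0.67, unadjusted p = 0.0904 and adjusted p = 0.798 from edgeR). Without Prmt3 f/f tumor 7 its unadjusted p was 0.0142. Col13a1, a transmembrane collagen, had a log2 fold change of -0.30.

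The number of collagens lower in Prmt3 LKO tumors at an unadjusted p under 0.05 was 0 in edgeR with all 6 tumors. It rose only when Prmt3 f/f tumor 71 was left out. Without it, 7 collagen genes reached an unadjusted p under 0.05 in edgeR. Of these, 6 were lower (Col3a1, Col5a2, Col6a5, Col8a1, Col15a1 and Col16a1), where 5.12% of the 14222 genes then tested were lower, and 1 was higher (Col5a3), where 2.74% of genes were higher. Their log2 fold changes were -0.80 for Col3a1, -0.93 for Col5a2, -1.37 for Col6a5, -1.26 for Col8a1, -0.51 for Col15a1, -0.80 for Col16a1 and 1.03 for Col5a3. The adjusted p-values were between 0.461 and 0.576, so none passed. Dropping Prmt3 f/f tumor 66 acted the other way, with 0 collagen genes lower and Col5a1 higher at an unadjusted p of 0.024 in edgeR. The shares of all genes were not counted for that fit. For Col1a1, Col1a2, Col4a1, Col4a2, Col5a1, Col6a1, Col6a2 and Col6a3 the fitted change was negative without tumor 71 and positive without tumor 66. Col3a1, Col5a2, Col6a5, Col8a1, Col13a1, Col15a1 and Col16a1 stayed negative both ways.

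**Figure D3:**
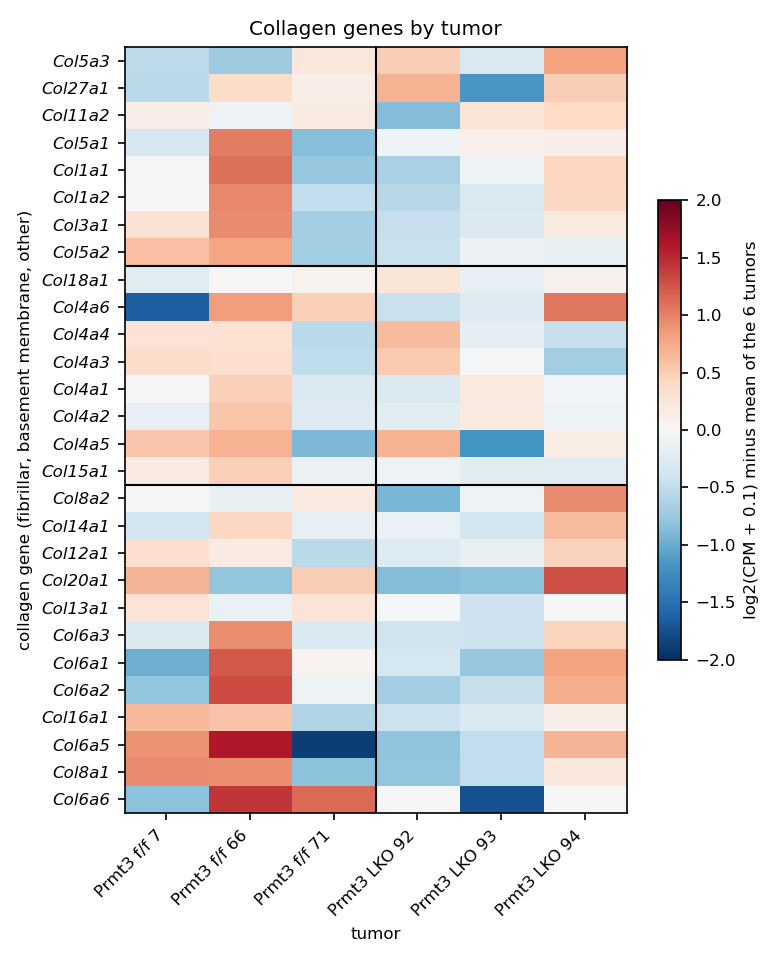
The 28 collagen genes tested in the 6 tumors, as log2(CPM + 0.1) minus the mean of the 6 tumors, with color limits at -2 and 2. Horizontal lines part fibrillar, basement membrane and other collagens, and the vertical line parts the genotypes. Prmt3 f/f tumor 66 is mostly red and Prmt3 f/f tumor 71 mostly blue.

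The tumors themselves were ranked within each gene. Prmt3 f/f tumor 66 was the highest of the 6 in 13 of the 28 collagen genes, where it was the highest in 14.9% of all genes tested. Prmt3 f/f tumor 71 was the lowest in 11 of the 28, against 14.7% of all genes. Prmt3 LKO tumor 94 was the highest in 7, and tumors 71 and 93 in 0. Relative to the mean of the 6 tumors, the median collagen gene stood at 0.56 on the log2 scale in tumor 66 and 0.31 in tumor 94, and at -0.27, -0.32 and -0.29 in tumors 71, 92 and 93. For fibrillar genes the span was wider, from 0.86 in tumor 66 to -0.58 in tumor 71, both of the same genotype. No test was run on these counts, since the genes of 1 tumor share its library.

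Ratios between chains were steadier than the levels for some pairs. Col4a1 and Col4a2 are transcribed head to head on chromosome 8 and overlap by 22 bases at their starts. The FPKM ratio of Col4a1 to Col4a2 was 1.51, 1.32 and 1.36 in Prmt3 f/f tumors and 1.32, 1.41 and 1.42 in Prmt3 LKO tumors, a 1.14-fold span where each gene spanned 1.75-fold. Col4a3 and Col4a4, which start on either side of the 71 bases printed above, had a ratio of 4.06, 3.91 and 3.93 against 3.54, 4.23 and 3.27, a 1.29-fold span where Col4a3 spanned 2.24-fold. The remaining head-to-head pair, Col4a5 and Col4a6 on the X chromosome, has starts 1308 bases apart. Its ratio ran from 9.72 to 215, and the few reads of Col4a6 make it imprecise.

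Col1a1 and Col1a2, on chromosomes 11 and 6, code for the type I trimer of 2 chains of the first and 1 of the second. Their ratio was 1.58, 1.77 and 1.34 in Prmt3 f/f tumors and 1.51, 1.85 and 1.61 in Prmt3 LKO tumors, a 1.38-fold span while Col1a1 spanned 3.48-fold. This ratio takes its height from the gene length, and with transcript lengths it was 0.517 to 0.712. Not all chains of 1 trimer kept a ratio. Col4a3 to Col4a5 ran from 1.39 to 5.55, Col5a1 to Col5a2 from 0.427 in tumor 7 to 1.06 in tumor 92, and Col6a1 to Col6a3 from 1.43 to 2.97. Between types, Col3a1 to Col1a1 spanned 1.45-fold and Col18a1 to Col1a1 spanned 3.996-fold, from 3.24 in tumor 66 to 12.9 in tumor 92. In each ratio the genotypes overlapped.

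**Figure D4:**
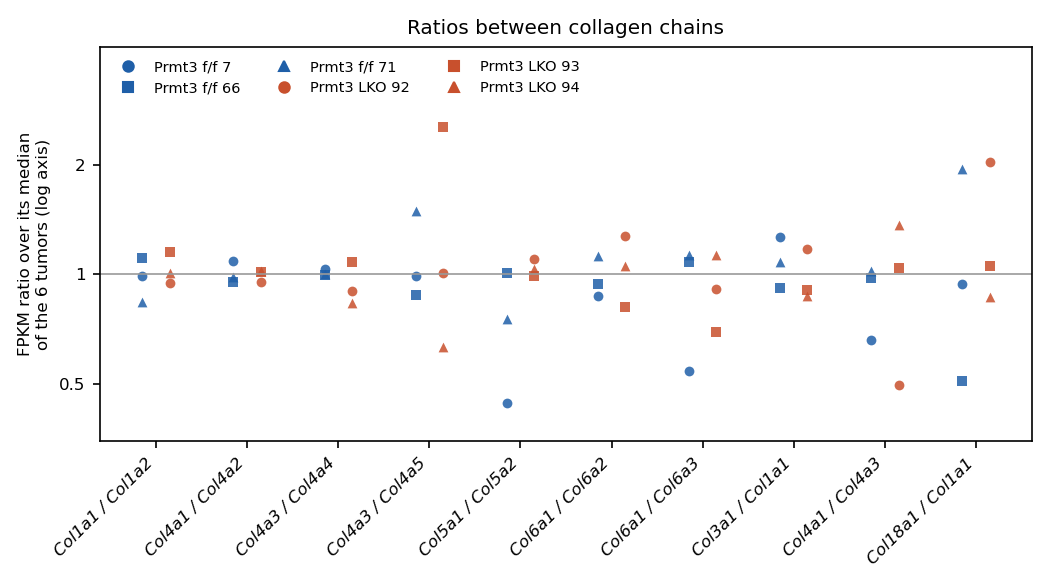
FPKM ratio of 10 pairs of collagen chains in each tumor, divided by its median over the 6 tumors (log axis), with blue for Prmt3 f/f and orange for Prmt3 LKO. The ratio of Col4a1 to Col4a2 stays within a 1.14-fold span, and that of Col18a1 to Col1a1 spans 3.996-fold.

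Genes that act on collagens were counted next, from lists written by hand. In the list of collagen processing, with the prolyl and lysyl hydroxylases, chaperones and procollagen proteases, 22 of 26 genes were tested, with a median log2 fold change of -0.13. None passed an adjusted p under 0.05, and 1 gene, P4ha1, was higher at an unadjusted p under 0.05, as 2.2% of all genes were. P4ha1, a catalytic subunit of prolyl 4-hydroxylase, was at 21.2, 25.2 and 31.7 CPM in Prmt3 f/f tumors and 42.4, 47.9 and 34.8 CPM in Prmt3 LKO tumors. Every Prmt3 LKO tumor lay above every Prmt3 f/f tumor, and the difference was 0.68 on the log2 scale (standard error 0.20, unadjusted p = 0.00896 and adjusted p = 0.606 from edgeR). P4hb, the other subunit of that enzyme and a general disulfide isomerase, had a log2 fold change of 0.04, and Ppib, a prolyl isomerase of the collagen-folding complex, -0.07.

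In 6 further lists, 0 genes passed at an adjusted p under 0.05 and 0 at an unadjusted p under 0.05 in edgeR. Cross-linking enzymes (6 of 6 genes tested) had a median log2 fold change of -0.37. Loxl1, a lysyl oxidase, was at 6.46, 13.7 and 5.13 CPM against 4.28, 5.23 and 10.9 CPM, with tumors 66 and 94 the highest, as in the fibrillar sum. Tgm2, a transglutaminase, had a log2 fold change of 0.28. Matrix partners (17 of 18 tested) had a median of -0.17, with Fn1, the fibronectin gene, at -0.14 and Dcn, a small proteoglycan that binds fibrils, at -0.27. Basement membrane partners (15 of 15 tested) had a median of -0.07, with Lamc1 at 0.02 and Nid1 at -0.13, which code for a laminin chain and for nidogen. Collagen receptors (9 of 10 tested) had a median of -0.19. The receptor kinase Ddr1 had a log2 fold change of -0.63 (unadjusted p = 0.0831 from edgeR), and the integrin chain Itgb1 of -0.10. Degradation genes (12 of 16 tested) had a median of -0.18, with Mmp15 at -0.09 and Mmp19 at 0.14. Inputs of the TGF-beta and PDGF pathways, which drive collagen transcription in stellate cells, had a median of -0.09 over 26 genes, with Tgfbr2 at 0.00071 and Tgfbi, a target of the pathway, at -0.41.

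Markers of the cells that could carry these transcripts were summed in each tumor. Hepatic stellate cell markers (12 genes) came to 392, 441 and 309 CPM in Prmt3 f/f tumors and 339, 382 and 421 CPM in Prmt3 LKO tumors. Myofibroblast markers (10 genes, among them Lox and Timp1, which are also in other lists) came to 66.1, 70.1 and 22.4 CPM against 31.0, 43.4 and 69.1 CPM. Both sums put the 6 tumors in the same order as the fibrillar collagen sum, from tumor 66 through 94, 7, 93 and 92 down to 71. Acta2, the smooth muscle actin of myofibroblasts, was at 17.4, 22.2 and 4.88 CPM against 8.11, 12.98 and 19.4 CPM, and Tagln at 19.6, 20.8 and 5.13 CPM against 11.1, 12.7 and 26.4 CPM. Between genotypes these lists had medians of -0.11 and -0.13 on the log2 scale. Of both, Thy1 alone had an unadjusted p under 0.05, at 7.79, 5.87 and 4.04 CPM against 1.71, 3.70 and 3.77 CPM (adjusted p = 0.739 from edgeR). Of all genes tested, 4.37% were lower at that limit. The groups of Thy1 did not overlap, as in 6.59% of all genes in that direction. The part of these cells in the spread of the fibrillar collagens was not tested.

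Mesothelial markers (8 genes) put the tumors in another order. They came to 6.09, 30.1 and 29.2 CPM in Prmt3 f/f tumors and 5.43, 6.63 and 14.3 CPM in Prmt3 LKO tumors, so that tumors 66, 71 and 94 were the highest, as in the type VI sum of 6.11, 20.7 and 9.12 FPKM against 6.48, 6.21 and 14.7 FPKM. Msln was at 0.369, 6.11 and 8.26 CPM against 0.857, 1.67 and 2.56 CPM. The median log2 fold change of the 7 genes tested was -1.53, with 0 at an unadjusted p under 0.05. Portal fibroblast markers (10 genes) came to 147 to 224 CPM in Prmt3 f/f tumors and 148 to 224 CPM in Prmt3 LKO tumors. Pi16 alone of the 9 tested was lower at an unadjusted p under 0.05 in edgeR, where 4.37% of all genes were. Its groups did not overlap, as in 6.59% of all genes in that direction. Endothelial markers (12 genes) stayed between 410 and 522 CPM, with a median of -0.13. The part of these cells in the collagen levels was not tested.

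**Figure D5:**
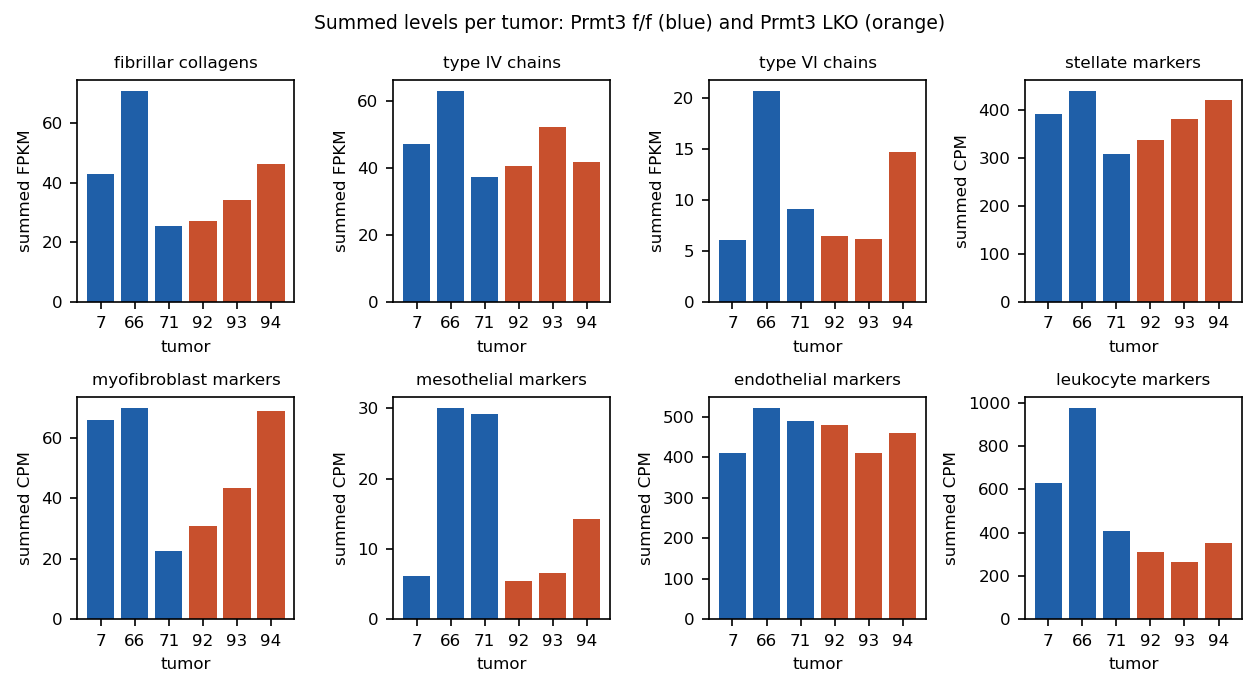
Summed levels in each tumor, with blue bars for Prmt3 f/f and orange bars for Prmt3 LKO. Panels show summed FPKM of fibrillar, type IV and type VI collagens and summed CPM of 5 marker lists, each axis starting at 0. Fibrillar collagens, stellate markers and myofibroblast markers are all highest in tumor 66 and lowest in tumor 71.

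Markers of other cell types were summed as well, with hepatocytes, a known source of Col18a1, among them. Leukocyte markers (12 genes) came to 630, 978 and 410 CPM in Prmt3 f/f tumors and 313, 265 and 352 CPM in Prmt3 LKO tumors. The groups did not overlap in this sum. Lyz2 took a large part of it, at 386, 674 and 160 CPM against 133, 118 and 162 CPM, and its own groups overlapped. Gene by gene, 8 of the 12 had groups that did not overlap, lower in Prmt3 LKO tumors, against 6.59% of all genes tested. Of these markers, 8 were lower at an unadjusted p under 0.05, where 4.37% of all genes were, and 0 passed an adjusted p under 0.05, with a median log2 fold change of -1.06. Cholangiocyte markers (10 genes) came to 4105, 1019 and 329 CPM against 359, 284 and 212 CPM. Most of this sum was Spp1 alone, at 4072, 977 and 309 CPM against 339, 265 and 184 CPM. Its groups overlapped, and its log2 fold change was -2.77 (unadjusted p = 0.0118 and adjusted p = 0.620 from edgeR). The log2 fold change was negative in 5 of the 8 cholangiocyte markers tested, so the sum describes Spp1 more than the list. Hepatocyte markers (12 genes) had a median of 0.09. Of the 9 cartilage and bone markers in the table, 4 were at 0 in every tumor and 8 at or under 3 counts, and Hapln1 alone was tested, at 0.373 to 1.11 CPM in Prmt3 f/f tumors. The part of these cells in the collagen levels was not tested.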

How the data were processed

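The 6 liver tumors, 3 with the genotype Prmt3 f/f and 3 Prmt3 LKO, were profiled by RNA-seq of poly(A)-containing RNA (RIN above 7 per the study), 1 library for each tumor. Paired-end reads had been aligned by the authors with HISAT2 2.0.4 (GRCm38). The submitters' processing notes also name bcl2fastq 2.19 and StringTie 1.3.0. The counting tool, annotation release and use of strand are not given in the sources used here. The deposited count values are whole numbers of reads for each gene and were not normalized by the authors. The deposited FPKM values divide this count by gene length and by the total count, and the implied length was equal in all tumors. The table has 34745 genes, and 1013830 rows without any entry were skipped. All 12 columns were used and 0 were left unused.

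Counts were filtered (filterByExpr, minimum count 10, minimum total 15), TMM-scaled and tested in R 4.3.3 by edgeR 4.0.16 (glmQLFit and glmQLFTest). P-values were adjusted over 13892 genes by the Benjamini-Hochberg method. A call needed an adjusted p under 0.05 and a fold of at least 2 or at most 0.5. Per-tumor log2 CPM used a prior count of 2. Class sums, ratios and orders were described without a test. The test was checked on simulated counts, with 13 false calls. Alternatives were DESeq2 1.42.0, the edgeR exact test, limma-voom (limma 3.58.1), no TMM, other filters, limma on log2(FPKM + 1) with a pseudocount of 1, and each tumor left out. Collagens were named by mean FPKM (the first 6 fibrillar, 6 basement membrane and 8 other), with all type IV chains and any collagen with an unadjusted p under 0.05 or without overlap in CPM, and list genes with an unadjusted p under 0.05 or the 2 highest by FPKM. Members and lists were chosen with earlier results of these data known. Symbols were matched to GENCODE M21 on GRCm38, with which 42 of the 44 collagens share coordinates. A sequenced depth of 18440244 to 27976598 counts, and above all 3 tumors in a group, limit precision.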

Additional observations from a re-analysis of the deposited data

How the results depend on the processing

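No collagen gene passed an adjusted p under 0.05 under any of the 13 alternatives, and the smallest adjusted p of a named collagen was 0.461. No paired analysis was possible because the 2 groups share no replicate numbers. The number of collagen genes lower at an unadjusted p under 0.05 went from 0 to 1 with DESeq2 (Col6a6). It was between 0 and 6 with 1 tumor left out, and the number higher was between 0 and 1. Shares over all genes were counted only for the main fit and for the fit without Prmt3 f/f tumor 71. With 1 tumor left out, the median log2 fold change was between -0.54 and 0.22 for fibrillar collagens (lowest without Prmt3 f/f tumor 71, highest without Prmt3 f/f tumor 66), between -0.28 and 0.13 for basement membrane collagens and between -0.79 and -0.027 for other collagens. The mean share of Col18a1 in the collagen sum went from 37.9% to 46.1% with transcript lengths, an alternative chosen after seeing the data. Of the 22 named collagens, 9 kept their sign in every alternative and 13 did not. With limma-voom the log2 fold change turned to 0.13 for Col5a1 and -0.010 for Col4a4, without TMM to -0.020 for Col4a4, and on log2(FPKM + 1) to 0.017 for Col5a1 and -0.017 for Col4a4. With 1 tumor left out, the sign also turned, and the range was -0.69 to 0.30 for Col1a1, -0.71 to 0.14 for Col1a2, -0.44 to 0.63 for Col5a1, -0.28 to 0.12 for Col4a1, -0.27 to 0.17 for Col4a2, -0.44 to 0.16 for Col4a3, -0.65 to 0.17 for Col4a5, -0.24 to 0.38 for Col14a1, -0.92 to 0.42 for Col6a1, -0.65 to 0.22 for Col6a3, -0.99 to 0.40 for Col6a2, -0.38 to 0.23 for Col4a4 and -0.68 to 0.57 for Col4a6. For 10 of these 13 genes the highest value came without Prmt3 f/f tumor 66. The cause was not tested.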
